A study of Mus musculus with 8 samples.

Results

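The cornified envelope scaffold was followed here through 9 genes other than those of the small proline-rich protein family: Ivl, Tgm1, Evpl, Ppl, Cnfn, Krtdap, Sbsn, Dmkn and Calml3. They were chosen by gene symbol, and each had 1 row among the 13437 genes of the expression table, with 24 of its 25635 transcripts. Gene expression had been measured by RNA sequencing in whole corneas of female mice of the C57BL/6 strain, 6 to 8 weeks of age, in a model of dry eye disease. There were 4 corneal samples from mice that received 0.2% BAC in drops of 5 µl, 2 times daily over 7 days in each eye, and 4 from mice given PBS in both eyes, all labelled as day 7. BAC is the usual short name of benzalkonium chloride, a preservative; the labels give the abbreviation only. The number of animals behind a sample is not given in the sources used here, so p-values describe the spread between these samples, which may be technical.

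The cornified envelope is the shell of cross-linked protein that forms beneath the plasma membrane of keratinocytes at the end of their differentiation. Transglutaminases join its precursors to one another, plakin proteins tie it to the keratin filaments and desmosomes, and small secreted proteins mark the layers in which it is built. The healthy corneal surface is a stratified epithelium that does not keratinize, although it expresses several of these genes, and cornification of the ocular surface is known from severe dry eye.

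Of the 9 genes, 4 were lower in BAC corneas, 3 were higher and 2 did not pass the test. The scaffold precursor gene Ivl, the plakin genes Evpl and Ppl and the calmodulin-like gene Calml3 were 2.59-fold to 4.41-fold lower. The 3 genes that rose, Sbsn, Dmkn and Krtdap, encode secreted proteins of differentiating keratinocytes and stand next to each other on chromosome 7. Tgm1, the envelope transglutaminase, and Cnfn, which encodes cornifelin, had overlapping values in the groups. The background to these counts is wide, since 67.6% of the 12967 genes tested passed (limma with Benjamini-Hochberg adjustment, adjusted p of 0.05), 45.1% higher and 22.6% lower. The split was 5845 higher and 2926 lower. Scaling by median of ratios gave 4431 higher and 4237 lower, and quantile normalization gave 3946 higher and 4967 lower, while the member counts stayed at 3 and 4 under both. Dmkn and Krtdap had PBS means under the filter on low values, a mean of 0.5 FPKM over all samples. They were kept through their BAC values, so their direction was fixed by that; among the other 7 members 1 was higher.

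Values are FPKM, fragments scaled to transcript length and library size, so levels can be compared between genes; each log2 change is BAC minus PBS of log2(FPKM + 1), which understates the change of low genes. The median change was 0.19 log2 over all genes and 0.30 over the members. Samples summed to 268629 to 283538 FPKM, with an unknown number of reads behind them, and libraries of 1 group correlated across genes with r between 0.977 and 0.986. In whole tissue, fewer cells of a type and less RNA per cell cannot be told apart. All 12 marker genes of epithelia in general were in the table; their summed FPKM was 5187 to 6460 with BAC and 7818 to 8371 with PBS, with 2 higher and 8 lower, Krt14 at 2510 ± 331 and 229 ± 29.1 FPKM and Krt5 at 2031 ± 224 and 5557 ± 276 FPKM (SD, n = 4). Of 10 marker genes of corneal epithelium 9 were in the table, summing to 677 to 850 FPKM with BAC against 20160 to 21487 FPKM with PBS. Of these 9, 8 were lower and 1 higher, and the corneal keratin gene Krt12 was at 10.5 ± 2.98 and 10325 ± 228 FPKM. The 6 conjunctival markers in the table, of 11 listed, were all higher, summing to 2683 to 3592 FPKM with BAC against 1011 to 1418 FPKM with PBS. All 10 leukocyte markers were higher, 4 of them with a PBS mean under the filter, at 770 to 1046 FPKM in sum with BAC against 11.9 to 21.9 FPKM with PBS, and Ptprc, the common leukocyte antigen gene, was at 4.74 ± 1.01 and 0.0840 ± 0.0107 FPKM. Keratocyte markers, all 9 in the table, summed to 1902 to 2199 FPKM with BAC and 668 to 1421 FPKM with PBS. They went both ways, with 4 higher, 3 lower and 2 that did not pass. The part of these shifts in the results below was not tested.

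The 3 genes that rose lie in 1 run of 39627 bases on the plus strand of chromosome 7, with no other gene with values between them. In GRCm38, Sbsn (ENSMUSG00000046056.15) spans chr7:30751471-30756134, Dmkn (ENSMUSG00000060962.12) chr7:30763756-30781063 and Krtdap (ENSMUSG00000074199.7) chr7:30787896-30791097. Bases before their start sites are shown because all 3 genes were higher with BAC, a direction that the filter fixed for Dmkn and Krtdap. A further reason is that Dmkn has 2 RefSeq start regions whose transcripts differed in level. The listed transcript Dmkn-206 begins elsewhere, at base 30765057, and the bases before it are not shown. The sequences come from the RefSeq promoter table (GRCm38.p6, plus strand, 5′ to 3′), and 6 of the 9 members had an entry. Capitals mark the letters TGANTCA, the AP-1 motif, and CCACCC, a Krüppel-like factor box, searched on both strands, so that GGGTGG is the second motif read from the other strand. No printed motifs overlap each other.
Sbsn, chr7:30751221-30751470: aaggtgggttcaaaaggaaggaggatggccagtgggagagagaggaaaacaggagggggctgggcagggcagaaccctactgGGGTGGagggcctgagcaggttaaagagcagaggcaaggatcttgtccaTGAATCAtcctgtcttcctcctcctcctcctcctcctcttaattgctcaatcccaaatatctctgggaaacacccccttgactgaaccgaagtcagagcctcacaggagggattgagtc
Dmkn, upstream start, chr7:30763506-30763755: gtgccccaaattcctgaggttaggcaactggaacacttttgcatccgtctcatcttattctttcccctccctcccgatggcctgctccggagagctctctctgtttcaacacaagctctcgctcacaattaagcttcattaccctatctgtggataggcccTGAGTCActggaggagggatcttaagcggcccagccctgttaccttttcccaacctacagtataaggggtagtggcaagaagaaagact
Dmkn, downstream start, chr7:30776155-30776400: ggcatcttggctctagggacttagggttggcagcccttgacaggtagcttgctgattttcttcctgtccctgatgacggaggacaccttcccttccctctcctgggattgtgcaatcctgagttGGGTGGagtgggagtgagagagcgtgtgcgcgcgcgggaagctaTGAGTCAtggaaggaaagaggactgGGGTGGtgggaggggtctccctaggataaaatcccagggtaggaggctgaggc
Krtdap, chr7:30787655-30787895: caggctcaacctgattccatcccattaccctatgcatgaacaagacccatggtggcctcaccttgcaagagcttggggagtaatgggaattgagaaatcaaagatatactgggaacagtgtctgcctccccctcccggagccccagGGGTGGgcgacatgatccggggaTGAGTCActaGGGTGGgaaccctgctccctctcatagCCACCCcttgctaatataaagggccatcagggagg

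Counting the last base before the RefSeq start as position -1, the AP-1 letters began at -82 before the downstream Dmkn start, at -81 before Krtdap, at -89 before the upstream Dmkn start and at -119 before Sbsn. A second match before Sbsn began at -6 and ran onto the start base, so it is not capitalised in the sequence. Of all 32851 windows of the same full length in the table, which reach from 250 bases before a start to 50 after it, 7.81% held TGANTCA, 31.5% held CCACCC and 2.09% held AACNGGTT, a grainyhead-like motif that none of the members' windows held. Ivl, which was lower, also held TGANTCA, at -116, and Tgm1 and Cnfn did not. CCACCC, read from either strand, was also held by Ivl, at -66, and by Tgm1, at -154 and -10. In all, 5 of the 6 members with an entry held CCACCC, so it is not particular to the genes that rose. These matches describe letters in a window and not bound sites.

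Sbsn encodes suprabasin, a secreted protein named for the layers above the basal cells. It was at 12.0, 13.7, 10.1 and 16.7 FPKM in the BAC corneas and at 2.14, 1.60, 2.998 and 2.58 FPKM in the PBS corneas. Every BAC value lay above every PBS value, and the group means of 13.1 ± 2.79 and 2.33 ± 0.601 FPKM (SD, n = 4) differed 5.64-fold. The log2 change was 2.08 (SE 0.17, limma adjusted p = 4.23e-06). The listed Sbsn transcripts summed to 26.7 to 42.9 FPKM with BAC and 1.11 to 3.79 FPKM with PBS. These sums lie further apart than the gene values, so the fold depends on which of them is used. Sbsn was the 1 member of the chromosome 7 group with a clear level in PBS corneas. On the same strand GENCODE M21 places Tmem147os, a non-coding transcript that shares 4656 bases of the Sbsn locus, and reads of the pair may not be separable.

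Dmkn encodes dermokine, a secreted protein of differentiating epithelia made in several isoforms. It was at 30.4, 28.7, 26.3 and 38.0 FPKM in the BAC corneas, against 0.528, 0.274, 0.420 and 0.130 FPKM in the PBS corneas. No PBS sample came near the lowest BAC sample. The means were 30.8 ± 5.06 and 0.338 ± 0.173 FPKM, which is 91.2-fold higher, a fold that rests on a low PBS level. The log2 change of 4.57 (SE 0.13, limma adjusted p = 1.42e-08) ranked 47 among the rises of all 12967 genes tested. With PBS below the filter of 0.5 FPKM, Dmkn could enter the test only as a gene that rose. The p-value and the rank are therefore no evidence for the direction.

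Krtdap encodes keratinocyte differentiation-associated protein, a small secreted peptide. It was at 13.9, 6.78, 14.8 and 16.9 FPKM in the BAC corneas; of the PBS corneas, PBS 1 was at 0.289 FPKM and the other 3 were listed at 0. All BAC samples were above all PBS samples, and BAC 2 was the lowest of its group. The log2 change was 3.66 (SE 0.24, limma adjusted p = 1.10e-06), and no fold is given against values listed at 0. Krtdap, like Dmkn, could pass the filter only by being higher with BAC, so its p-value is no evidence for the direction. With a pseudocount of 0.1 in place of 1 the change was 6.47.

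The 4 nearest genes with values on each side were at log2 changes from -0.39 to 0.85 where tested. Of these 8, 4 were higher (Cox6b1, Haus5, Tmem147 and Usf2), 1 was lower (Fam187b), 2 did not pass (Rbm42 and Lsr) and 1, Cd22, was under the filter and not tested. Cd22, a B cell receptor gene, was at 0.633, 1.04, 0.746 and 0.554 FPKM in the BAC corneas; of the PBS corneas, PBS 3 was at 0.0194 FPKM and the others were listed at 0. Its groups did not overlap. Haus5, at 3.80 ± 0.562 FPKM with BAC and 1.69 ± 0.572 FPKM with PBS, had the largest of the tested changes. These neighbours were named by position, after the members' values had been seen.

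**Figure D1:**
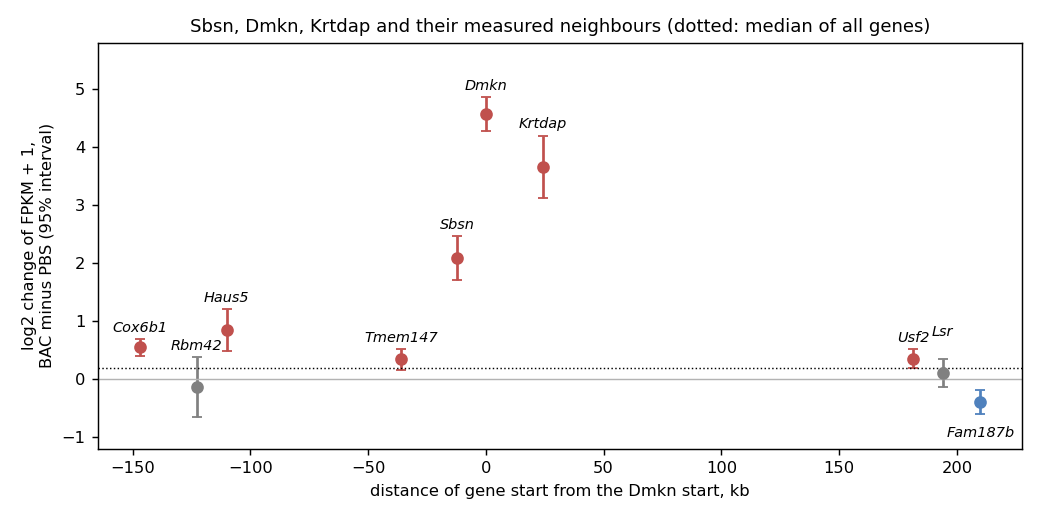
Log2 change of FPKM + 1 (BAC minus PBS, with its 95% interval) of Sbsn, Dmkn, Krtdap and their tested neighbours, by the distance in kb of each gene's start from the Dmkn start. Red points are higher, blue lower and grey not past the threshold; Dmkn at 4.57, Krtdap at 3.66 and Sbsn at 2.08 stand above the others, which lie between -0.39 and 0.85.

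The transcripts of these genes showed where the Dmkn signal lay. Dmkn-201, the short transcript from the downstream start, was at 54.3, 45.1, 48.7 and 73.3 FPKM in the BAC corneas and was listed at 0 in all 4 PBS corneas. Dmkn-203, from the upstream region, was at 11.3 ± 1.27 FPKM with BAC and was also listed at 0 in all PBS corneas. Dmkn-201 made up 75.8%, 71.3%, 77.9% and 79.4% of the FPKM of the 4 Dmkn transcripts tested in the BAC corneas, and 0% in the PBS corneas, where these transcripts summed to no more than 0.560 FPKM. The share differed by 76.1 points (exact permutation test over 70 assignments, two-sided, p = 0.0286, adjusted p = 0.0714 over 5 members). It did not pass after adjustment. All 4 transcripts had PBS means under the filter, and Dmkn-201 was chosen by its mean over all samples. That choice favoured a higher share with BAC, so the test cannot decide whether the isoforms shifted.

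Sbsn had 2 main transcripts. Sbsn-203 was at 20.9 ± 3.92 FPKM with BAC and 0.505 ± 0.627 FPKM with PBS, and Sbsn-201 at 12.5 ± 2.95 and 1.47 ± 0.900 FPKM (SD, n = 4). The share of Sbsn-203 was between 60.6% and 65.0% in the BAC corneas, against 1.75%, 53.5%, 35.1% and 0% in the PBS corneas (difference 40.2 points, exact permutation p = 0.0286, adjusted p = 0.0714). The groups did not overlap, while the PBS shares were spread widely and rested on sums of 1.11 to 3.79 FPKM. Sbsn-203 was chosen for this share by its mean over all samples, which its BAC values led. With PBS the mean of Sbsn-201 was the higher of the 2, so the choice favoured a higher share with BAC. The 4 Krtdap transcripts were listed at 0 in every PBS cornea, and Krtdap-201 held 36.0% to 52.3% of their sum with BAC.

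Of the 24 transcripts of the members 22 were tested, with 10 higher, 6 lower and 6 not past the threshold (limma, adjusted over 23349 transcripts). Over all transcripts tested 34.6% passed, 23.0% higher and 11.6% lower. The groups did not overlap for 16 of the 22, 10 higher and 6 lower, against 37.1% of all transcripts tested, 24.5% higher and 12.6% lower. The 10 that were higher all belonged to Sbsn, Dmkn and Krtdap; 5 of the 6 lower ones belonged to Ivl, Evpl, Ppl and Calml3. Of the 10 that were higher, 8 (4 of Dmkn and 4 of Krtdap) had a PBS mean under the filter and were kept through their BAC values, so their direction was fixed; the other 2 were Sbsn-201 and Sbsn-203. The gene value is not the plain sum of the listed transcripts, so shares refer to the sum of transcripts.

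**Figure D2:**
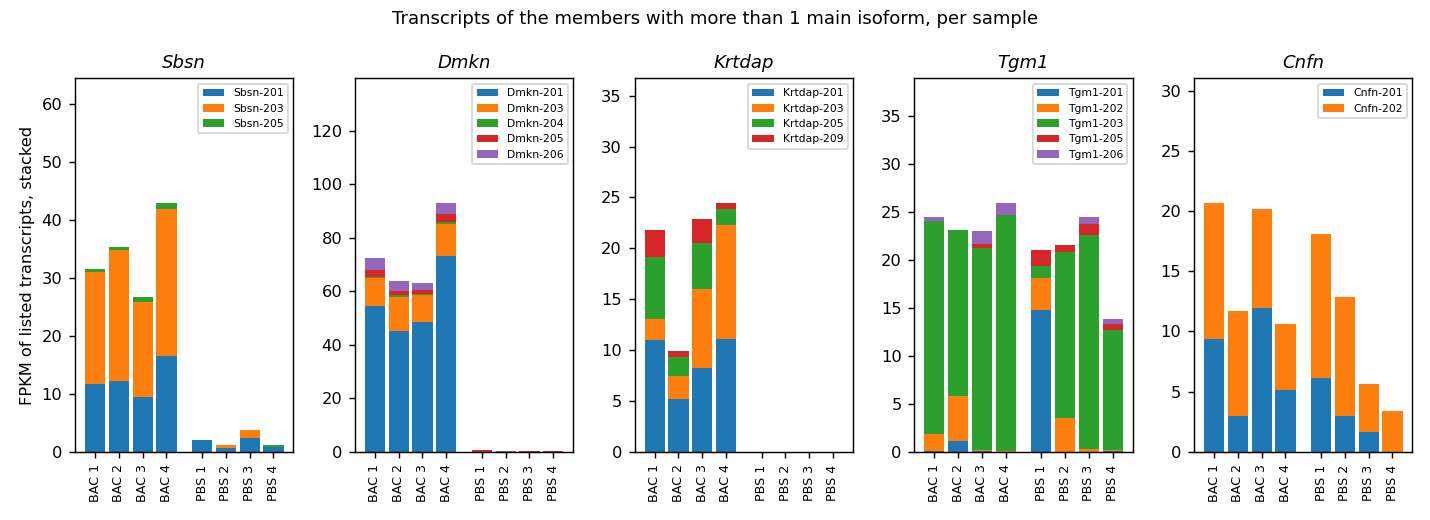
FPKM of the listed transcripts of Sbsn, Dmkn, Krtdap, Tgm1 and Cnfn, stacked, with 1 bar for each of the BAC and PBS corneas. Dmkn-201 fills most of the Dmkn bars with BAC (71.3% to 79.4% of the tested transcripts), and Tgm1-201 replaces Tgm1-203 in PBS 1 alone.

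Ivl encodes involucrin, an early scaffold protein and a main substrate of transglutaminases, and lies among the epidermal differentiation genes of chromosome 3 (ENSMUSG00000049128.7, chr3:92570902-92573735, minus strand). Ivl was at 4.17, 2.78, 3.68 and 4.15 FPKM in the BAC corneas and at 9.29, 10.2, 9.69 and 9.10 FPKM in the PBS corneas. The highest BAC value was below the lowest PBS value. Ivl fell 2.59-fold (log2 change -1.18, SE 0.11, limma adjusted p = 8.12e-06). It was the lowest of the 9 genes in BAC corneas.

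Tgm1 encodes transglutaminase 1, the membrane-bound enzyme that cross-links the envelope (ENSMUSG00000022218.16, chr14:55700009-55713926, minus strand). It was at 20.9, 20.1, 18.7 and 21.5 FPKM in the BAC corneas and at 17.5, 18.3, 19.8 and 11.2 FPKM in the PBS corneas. PBS 3 lay within the BAC range and PBS 4 lay below all other samples. The change was 0.30 log2 with a 95% interval of -0.05 to 0.64 (limma adjusted p = 0.118), and it was 0.12 without PBS 4 (limma adjusted p = 0.175) and 0.09 after median-of-ratios scaling (limma adjusted p = 0.653). GENCODE M21 places an antisense gene, Gm49067, over 12274 bases of the Tgm1 locus; the library kit was stranded, but the counting is not stated to use strand.

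The Tgm1 isoforms were unevenly assigned. Tgm1-203 was at 22.2, 17.3, 21.1 and 24.6 FPKM with BAC and at 17.3, 22.2 and 12.5 FPKM in PBS 2, PBS 3 and PBS 4, but at 1.28 FPKM in PBS 1. In PBS 1 alone, Tgm1-201 was at 14.8 FPKM, against at most 0.0319 FPKM in the other PBS corneas and at most 1.09 FPKM with BAC. The share of Tgm1-203 averaged 88.0% ± 8.97 with BAC and 66.9% ± 40.9 with PBS (exact permutation p = 0.486), a difference of 21.1 points that was -1.99 points without PBS 1. Tgm1-205, which spans the 5′ end of the locus, was the 1 Tgm1 transcript that passed: it was at 0.0954 ± 0.191 FPKM with BAC and 1.08 ± 0.436 FPKM with PBS (log2 change -0.91, SE 0.20, limma adjusted p = 0.00818). It was kept by the filter through its PBS values, so that direction was fixed too.

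The ratio of Ivl RNA to Tgm1 RNA was lower with BAC; protein and enzyme activity were not measured here. On the log2 scale its change is the Ivl change less the Tgm1 change, so it is not separate evidence. The log2 ratio of Ivl to Tgm1 was -2.08, -2.48, -2.07 and -2.13 in the BAC corneas and -0.84, -0.79, -0.96 and -0.27 in the PBS corneas, with no overlap. The means differed by -1.48 (exact permutation p = 0.0286, adjusted over 4 pairs 0.0286; with 70 assignments no smaller p was possible).

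Envoplakin and periplakin, the products of Evpl and Ppl, are plakins that join into a dimer at the membrane before other precursors are added. Evpl (ENSMUSG00000034282.3, chr11:116220559-116238077, minus strand) was at 97.6, 89.5, 75.1 and 63.9 FPKM in the BAC corneas and at 289, 325, 321 and 308 FPKM in the PBS corneas. Ppl (ENSMUSG00000039457.3, chr16:5086291-5132481, minus strand) was at 153, 137, 114 and 108 FPKM in the BAC corneas and at 360, 411, 408 and 340 FPKM in the PBS corneas. Neither gene had overlapping groups, and for both BAC 1 was the highest and BAC 4 the lowest BAC sample.

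Evpl fell 3.81-fold (log2 change -1.93, SE 0.12, limma adjusted p = 8.71e-07) and Ppl 2.97-fold (log2 change -1.57, SE 0.12, limma adjusted p = 2.36e-06). Evpl was below Ppl in every sample, and further below it with BAC. The log2 ratio of Evpl to Ppl was -0.64, -0.60, -0.60 and -0.75 in the BAC corneas and -0.32, -0.34, -0.35 and -0.14 in the PBS corneas (difference -0.36, exact permutation p = 0.0286, adjusted p = 0.0286). In mean FPKM this is 0.637 Evpl per Ppl with BAC and 0.818 with PBS.

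Of the other plakin genes 4 of the 5 listed had values, with 3 lower, 1 higher and a median change of -0.49. Dsp, the desmosomal plakin gene, was at 167 ± 21.7 FPKM with BAC and 435 ± 61.5 FPKM with PBS. Plec and Dst, plakin genes of the hemidesmosome, fell by 0.52 and 0.46 on the log2 scale, and Macf1, a cytoskeletal crosslinker gene, rose by 0.43.

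The Sbsn ratios to its neighbours also differed between groups. The log2 ratio of Sbsn to Dmkn was between -1.29 and -1.02 with BAC and between 1.03 and 1.66 with PBS (difference -2.49, exact permutation p = 0.0286, adjusted p = 0.0286). For Sbsn to Krtdap the ratios were -0.19, 0.92, -0.50 and -0.01 with BAC and 1.29, 1.38, 2.00 and 1.84 with PBS (difference -1.57, exact permutation p = 0.0286, adjusted p = 0.0286). Leaving out any 1 of the PBS samples took the adjusted exact p of this pair to 0.0571, with differences from -1.69 to -1.45. With Krtdap listed at 0 in 3 PBS corneas, the PBS side of that ratio is the Sbsn level and the pseudocount of 1. The same limit holds for Sbsn to Dmkn, since Dmkn had a PBS mean of 0.338 FPKM and its direction was fixed by the filter. A pseudocount of 0.1 gave differences of -4.02 for Sbsn to Krtdap and -3.77 for Sbsn to Dmkn.

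**Figure D3:**
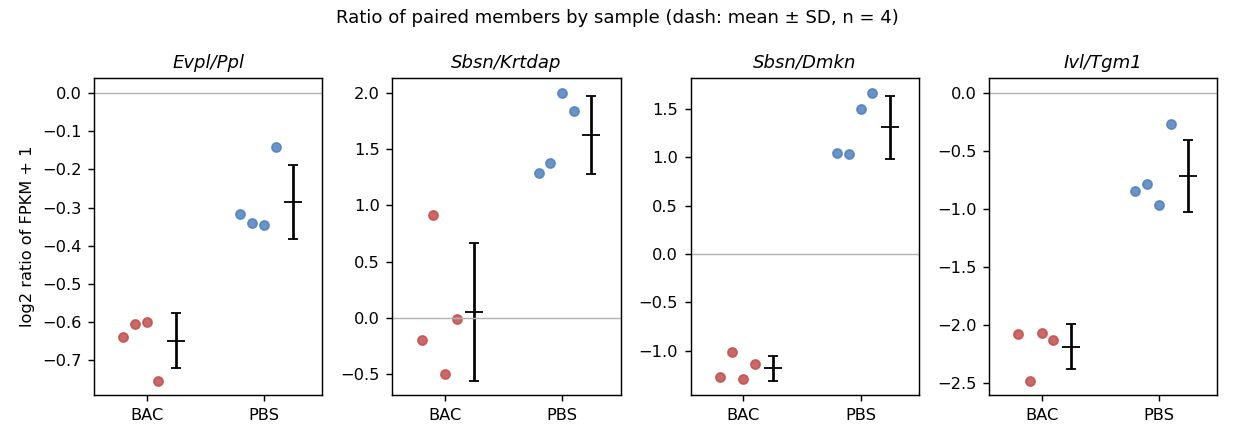
Log2 ratio of FPKM + 1 between paired members in each cornea, with BAC left of PBS; points are samples and dashes with bars the mean and SD of 4. For all 4 pairs the BAC samples lie below the PBS samples, with differences of means from -0.36 for Evpl/Ppl to -2.49 for Sbsn/Dmkn. The sign of each difference follows from which gene was put first. In Sbsn/Dmkn and Sbsn/Krtdap the PBS denominator is mostly the pseudocount, and the filter fixed the direction of Dmkn and Krtdap.

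Cnfn (ENSMUSG00000063651.11, chr7:25367620-25369724, minus strand) encodes cornifelin, an envelope component of stratified epithelia. It was at 17.8, 10.6, 16.7 and 9.08 FPKM in the BAC corneas and at 16.0, 11.8, 5.10 and 3.32 FPKM in the PBS corneas. Samples of both groups ran from high to low and overlapped widely, with coefficients of variation of 32.0% with BAC and 65.2% with PBS. The change was 0.69 log2 with a 95% interval of -0.26 to 1.64 (limma adjusted p = 0.172). Leaving out PBS 1, the highest PBS sample, gave 1.01 (limma adjusted p = 0.0425), which is past the threshold, and the other alternatives gave 0.36 to 0.88. Cnfn-202 held 55.4% ± 14.0 of the Cnfn transcripts with BAC and 78.5% ± 14.9 with PBS (exact permutation p = 0.0857, adjusted p = 0.143).

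Calml3 (ENSMUSG00000063130.4, chr13:3802896-3804316, minus strand) encodes a calmodulin-like protein of epithelial cells, whose human form binds the motor protein myosin-10. It was the highest of the 9 genes in both groups, at 703, 555, 524 and 558 FPKM in the BAC corneas and at 2723, 2512, 2538 and 2538 FPKM in the PBS corneas. The groups lay far apart, with PBS 1 the highest of its group. Calml3 fell 4.41-fold (log2 change -2.15, SE 0.09, limma adjusted p = 8.81e-08), the largest fall among the members. Calml3-201 made up 98.4% to 99.3% of its transcripts with BAC and 98.1% to 99.0% with PBS.

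Of 7 listed genes of the calmodulin family, Myo10 included, 5 had values and 4 of them were higher, with a median change of 0.90. Calm4, an epidermal calmodulin-like gene of the mouse, was at 15.7 ± 3.15 FPKM with BAC and 2.17 ± 0.685 FPKM with PBS. Calm2 and Calm3, which encode calmodulin itself, had log2 changes of 0.90 and 0.98, and Myo10, the gene of myosin-10, of 0.64; all 3 passed.

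**Figure D4:**
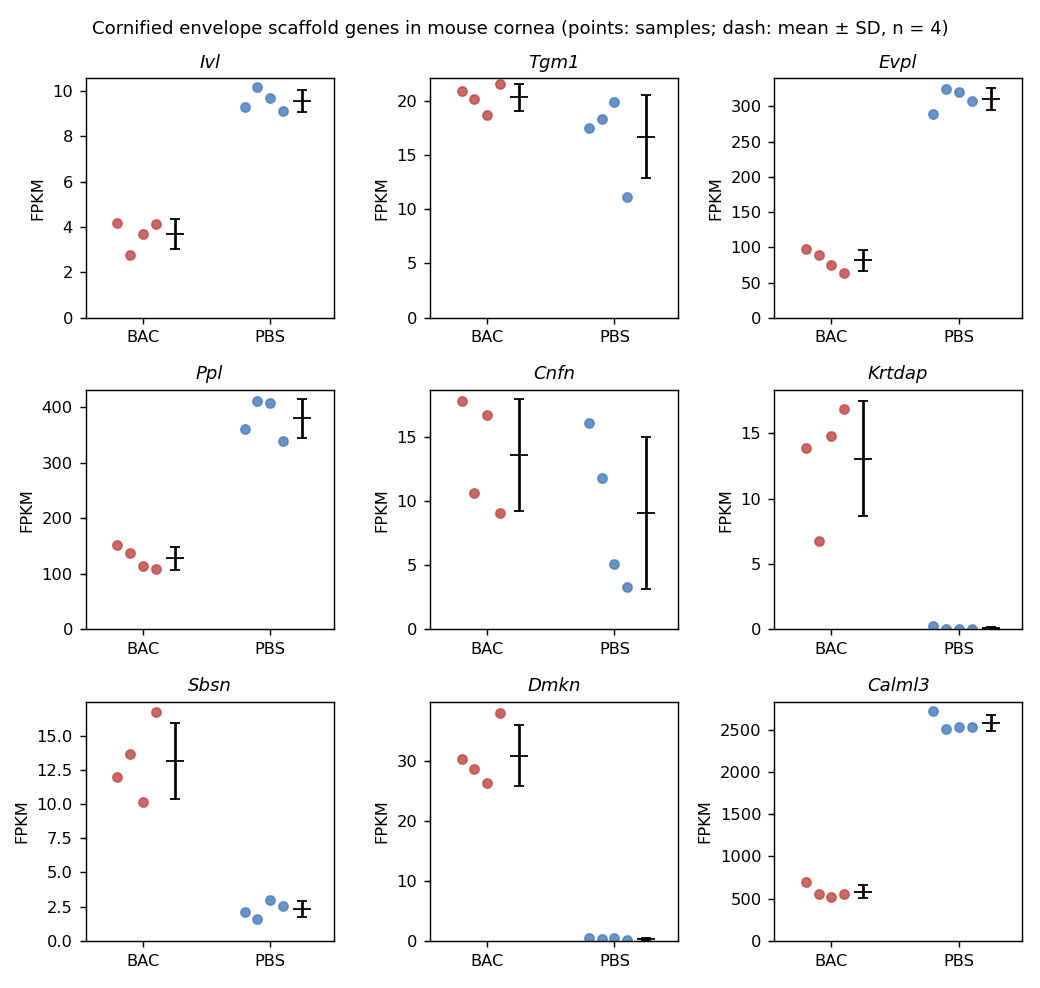
FPKM of the 9 members in each cornea, with BAC left of PBS; points are samples and dashes with bars the mean and SD of 4. Ivl, Evpl, Ppl and Calml3 are lower and Krtdap, Sbsn and Dmkn higher with no overlap, while Tgm1 and Cnfn overlap.

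The order of levels changed with the groups. In the BAC corneas it ran Calml3, Ppl, Evpl, Dmkn, Tgm1, Cnfn, Sbsn, Krtdap and Ivl, and the neighbours in this order overlapped for Cnfn with Sbsn and for Sbsn with Krtdap. In the PBS corneas it ran Calml3, Ppl, Evpl, Tgm1, Ivl, Cnfn, Sbsn, Dmkn and Krtdap, with overlap for Ivl with Cnfn and for Dmkn with Krtdap. For 7 of the 9 members the groups did not overlap, 3 of them higher and 4 lower. Over all genes tested 63.5% did not overlap, 42.6% higher and 20.9% lower. For the 4 genes that fell, coefficients of variation were 13.7% to 18.4% with BAC and 3.80% to 9.32% with PBS.

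Other genes of cornification went both ways. Over the 6 lists, 68 genes were tested, with 25 higher, 34 lower and a median change of -0.30. These counts include Crnn, Klk13 and Gata3, higher with PBS means of 0.354, 0.103 and 0.0341 FPKM. They also include Lce3a, lower with a BAC mean of 0.493 FPKM. Each of these means was under the filter, so the direction of these genes was fixed. Of all genes tested, 45.1% were higher and 22.6% lower. Scaling by median of ratios gave 21 higher and 40 lower genes of the lists, and quantile normalization gave 20 and 38. Of 44 listed envelope precursors and transglutaminases 16 had values, with 6 higher, 7 lower and a median of -0.40. Anxa1, a calcium-dependent membrane protein and envelope precursor, was at 1140 ± 64.1 FPKM with BAC and 389 ± 6.60 FPKM with PBS. Scel, which encodes the envelope precursor sciellin, was at 83.5 ± 12.0 and 338 ± 48.2 FPKM. Krt80, a keratin gene of differentiating epithelia, was at 51.0 ± 9.02 and 216 ± 26.7 FPKM. Stfa1, a stefin A gene, was at 21.1 ± 4.53 and 79.1 ± 6.89 FPKM; it belongs to a cluster of similar copies, so its share of reads is uncertain. Lor, Flg, Tgm3 and most of the late cornified envelope genes of the list had no values and were not analysed here. Among all genes with values, the lowest mean in a gene's higher group was 0.501 FPKM. Genes without values may therefore have been low in both groups, which the sources used here do not state.

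Among barrier proteases and their inhibitors 12 of 18 had values, with 5 higher, 4 lower and a median of 0.08. The kallikrein gene Klk13 was at 23.3 ± 8.81 FPKM with BAC and 0.103 ± 0.0318 FPKM with PBS, and it was kept by the filter through its BAC values. Klk8, another kallikrein gene, was at 7.05 ± 1.14 and 1.90 ± 0.132 FPKM, and the kallikrein inhibitor gene Spink5 at 113 ± 15.7 and 15.3 ± 4.05 FPKM. Asprv1, the protease gene that processes filaggrin in skin, was at 219 ± 89.7 and 1743 ± 216 FPKM, a log2 change of -3.07.

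Of 18 barrier lipid genes 11 had values, with 3 higher, 6 lower and a median of -0.27. Ugcg, the glucosylceramide synthase gene, was at 27.2 ± 3.36 FPKM with BAC and 3.15 ± 0.441 FPKM with PBS. Cyp4f39, an acyl hydroxylase gene, rose by 1.16 on the log2 scale, whereas Abhd5, a lipase cofactor gene, and Slc27a4, a fatty acid transporter gene, fell by 0.62 and 0.60.

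All 20 regulators of terminal differentiation had values, with 14 lower, 6 higher and a median of -0.98. Gata3, among the higher, was kept by the filter through its BAC values. Klf4, a Krüppel-like factor of barrier formation, was at 64.6 ± 4.59 FPKM with BAC and 302 ± 34.8 FPKM with PBS. The homeodomain gene Hopx was at 75.1 ± 14.0 and 332 ± 29.2 FPKM. Barx2, a homeobox gene, was at 34.9 ± 1.45 and 3.62 ± 0.648 FPKM.

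Markers of the epidermis stand beside the members because Krtdap, Sbsn and Dmkn are known from skin. Of 10 listed, 4 were in the table: Krt10 was higher, Asprv1 lower, and Krt1 and Cdsn did not pass; 2 of the 4 were lower after median-of-ratios scaling, after quantile normalization or without BAC 1. Krt1, a keratin gene of the upper epidermis, was at 1.71 ± 0.647 FPKM with BAC and 2.25 ± 0.457 FPKM with PBS, and Krt10, its partner, at 10.8 ± 5.07 and 3.13 ± 0.485 FPKM. The list summed to 154 to 364 FPKM with BAC and 1493 to 1978 FPKM with PBS, most of it Asprv1. The part of these genes in the member results was not tested.

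**Figure D5:**
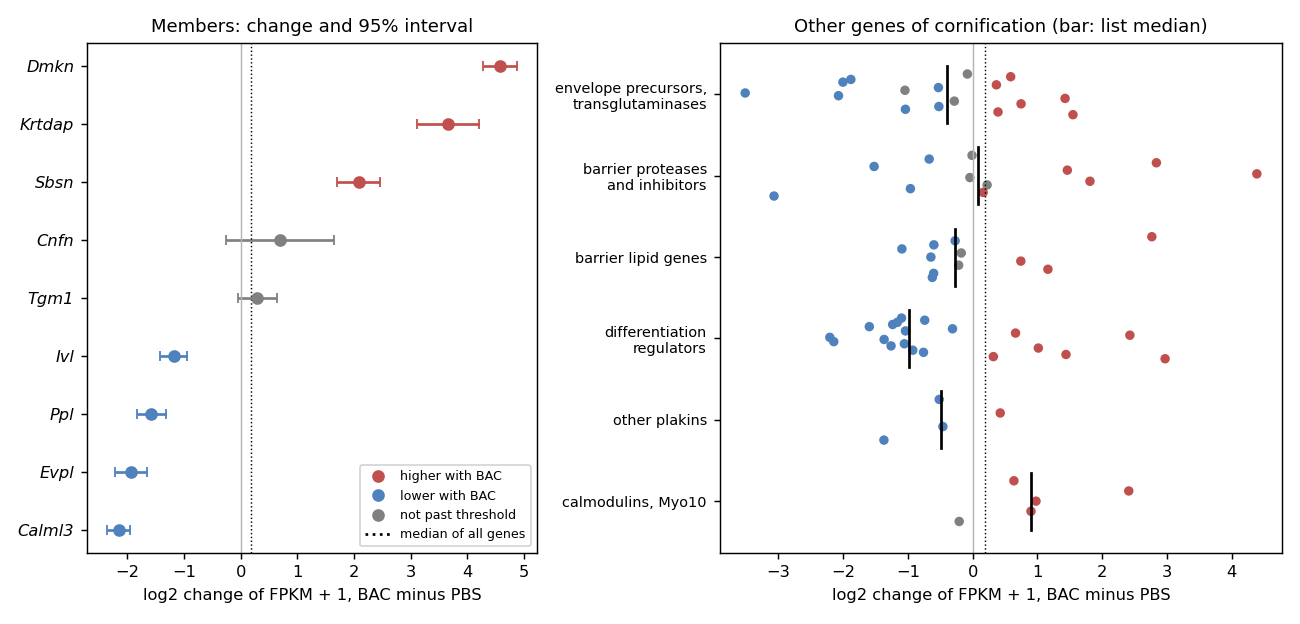
Log2 change of FPKM + 1 (BAC minus PBS): on the left each member with its 95% interval, on the right each tested gene of the 6 other lists of cornification, with a bar at the list median. Red is higher, blue lower and grey not past the threshold, and the dotted line is the median of all genes at 0.19; members run from -2.15 (Calml3) to 4.57 (Dmkn), and the differentiation regulators have the lowest list median, -0.98.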

How the data were processed

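Corneal RNA was sequenced from 4 BAC and 4 PBS samples with a stranded KAPA kit, per the labels' protocols. Reads were aligned with HISAT2 2.1.0 and assembled with StringTie 1.3.3 on GRCm38, per the submitters' processing notes. The values used are FPKM per gene and per transcript as deposited by the authors; how they were normalized further is not given in the sources used here.

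FPKM carry no read counts: of the 300 lowest values per sample, 16.0% to 26.7% lay within 0.05 of a whole multiple, so depth is unknown and no interval from counts is given. Rows with a mean of at least 0.5 FPKM over the 8 samples were tested on log2(FPKM + 1) with limma 3.58.1 in R 4.3.3 (trended prior variance, two-sided), adjusted by Benjamini-Hochberg over all rows kept, at an adjusted p of 0.05. Ratios and isoform shares were compared by exact permutation over 70 assignments (smallest p 0.0286). Each share is that of the transcript with the highest mean FPKM over the 8 samples. The scripts were tested on simulated data.

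The members and lists were chosen with earlier results of these data known. All 9 members are named, with up to 4 genes of smallest adjusted p per list and any gene that did not pass among a list's 2 highest. Some genes that this rule names are not reported here. Of the gene IDs, 99.9% matched GENCODE M21 without version. Alternatives were the pseudocount, filter, scaling, prior, sample weights, replicate block and each sample left out.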

Additional observations from a re-analysis of the deposited data

Results flagged for a closer look

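In 10 of 75 groups of 4 values, the highest or lowest sample stood apart from the others beyond Dixon's critical value. For independent, normally distributed groups chance flags about 1 in 20. Where all other values are 0, any value above 0 is flagged. A gene and its main transcript, such as Calml3 and Calml3-201, repeat 1 signal, so these rates cannot be compared directly. Of the PBS corneas, PBS 1 had 0.289 FPKM of Krtdap with the others at 0, and 2723 FPKM of Calml3, with the next at 2538 FPKM. Its Calml3-201 value was 2713 FPKM, with the next at 2528 FPKM. PBS 1 also had 14.8 FPKM of Tgm1-201, with the next at 0.0319 FPKM, and a Tgm1-203 share of 6.07%, with the next at 80.2%. PBS 2 had 0.0271 FPKM of Dmkn-206 with the others at 0, and PBS 4 had a log2 Evpl/Ppl ratio of -0.14, with the next at -0.32. Of the BAC corneas, BAC 2 had 1.09 FPKM of Tgm1-201, with the next at 0.0950 FPKM, and a log2 Ivl/Tgm1 ratio of -2.48, with the next at -2.13. BAC 3 had 0.382 FPKM of Tgm1-205 with the others at 0.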

How the results depend on the processing

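The member counts of 3 higher and 4 lower held under the alternatives run, except that Cnfn passed without PBS 1, which made 4 higher. Over all genes the lower count was 4967 after quantile normalization, against 2926. With a filter at a mean of 2 FPKM, 6 member transcripts were higher, against 10. The change of Tgm1-202, -0.17 and not past the threshold, ran from -0.66 to 0.15 with 1 sample left out, and was above 0 without BAC 3, BAC 4, PBS 1 or PBS 2. Leaving out 1 sample put the Sbsn/Krtdap difference between -1.86 and -1.39 and the Tgm1-203 share difference between -1.99 and 28.9 points, the lowest without PBS 1. Deviations of same-numbered samples correlated with r of 0.053, 0.109, 0.121 and 0.114, and those of the 12 other pairs with r of -0.119 to 0.104. For 7 of 8 samples, all but BAC 1, r was highest with the same number, a hint from the data and not from the design. As 1 same-number r was under 0.1 and the labels give no shared origin, the numbers were not taken to pair the samples. With the replicate block the members stayed at 3 higher and 4 lower, and all genes at 5693 and 2826. The ratio differences stayed at -0.36 (Evpl/Ppl), -1.57 (Sbsn/Krtdap), -2.49 (Sbsn/Dmkn) and -1.48 (Ivl/Tgm1) with the block, at an exact p of 0.125, the smallest that 4 pairs allow. Apart from that limit, the cause of these shifts was not tested. Depth is unknown, so values listed at 0 set no upper limit.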
